A study of Mus musculus with 6 samples.

Results

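Perineuronal nets are a condensed form of extracellular matrix that wraps the cell body and proximal dendrites of certain neurons. Their genes were examined in the hippocampus of young (3M) and aging (22M) mice. The 8 genes were chosen by name: the lecticans Acan, Bcan and Ncan, the link proteins Hapln1 and Hapln4, the tenascins Tnr and Tnc, and the hyaluronan synthase gene Has3. Of these 8 genes, 6 had a row among the 13321 genes of the table, with 7 transcripts, and all 6 were tested among 13041 genes. Acan and Has3 were not analysed here. Every transcript in the table averaged 0.5 FPKM or more in 1 age or both.

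The 22M group comprised 3 hippocampal libraries of 22-month-old mice (72, 76 and 78) and the 3M group 3 libraries of 3-month-old mice (J11, J13 and J15). All mice were male, wild type and of the inbred strain C57BL/6. The labels call the groups aged and young and do not state whether each library is from its own mouse, so p-values reflect only how far these libraries spread, which may be technical. Values are FPKM, fragments scaled to transcript length and to the number of mapped fragments, summed over a gene's deposited transcripts. The libraries hold no read counts, their depth is unknown, and their summed FPKM ran from 318024 to 358073.

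In a perineuronal net, hyaluronan chains made by the hyaluronan synthases of the neuron form the backbone. Lecticans are chondroitin sulfate proteoglycans that bind hyaluronan at one end, and link proteins clamp that bond. At the other end lecticans bind tenascin-R, which ties several of them together. In the hippocampus, nets surround many parvalbumin interneurons and the pyramidal neurons of CA2, and are known for limiting the plasticity of the synapses on them. Several of the components are made by glia: brevican and neurocan by astrocytes and oligodendrocyte precursors, and tenascin-R by cells of the oligodendrocyte lineage.

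None of the 6 net genes passed the adjusted test between the ages. Tnr was 27.4 ± 3.86 FPKM in 22M, against a 3M mean of 15.4 ± 2.66 FPKM (SD, n = 3 libraries each), and was the only member past the thresholds the study used (unadjusted P under 0.05 with at least a 1.5-fold change). Ncan and Hapln4 had positive fold changes, and Bcan and Tnc negative ones, with no overlap between the ages. By limma's adjusted p, 0 of 6 members rose or fell, where 2.13% of all genes tested did (0.92% rose and 1.21% fell). At the study's thresholds 1 of 6 was higher and 0 of 6 lower, where 4.08% of all genes were higher, 4.22% lower and 8.3% either. An unadjusted limma P under 0.05 was reached by 4 of 6 (Tnr, Bcan, Ncan and Hapln4), where 27% of all genes did. A model with each gene's own variance gave 0 of 6 by the adjusted p. Over all genes 0 rose and 0 fell in that model, so its 0 of 6 says nothing about the members. By its unadjusted P it gave 4 of 6, with Tnc in place of Hapln4, and the 27% is not a share from this model. The ages did not overlap in 5 of 6 members, where 34.4% of all genes showed no overlap (13.3% with 22M above and 21.1% with 22M below). The median log2 fold change of the 6 members was 0.33, beside -0.05 over all genes tested, and 4 of 6 were above 0, where 44% of all genes were. Fold changes are on the scale of log2(FPKM + 0.5), which understates differences of genes with low FPKM.

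**Figure D1:**
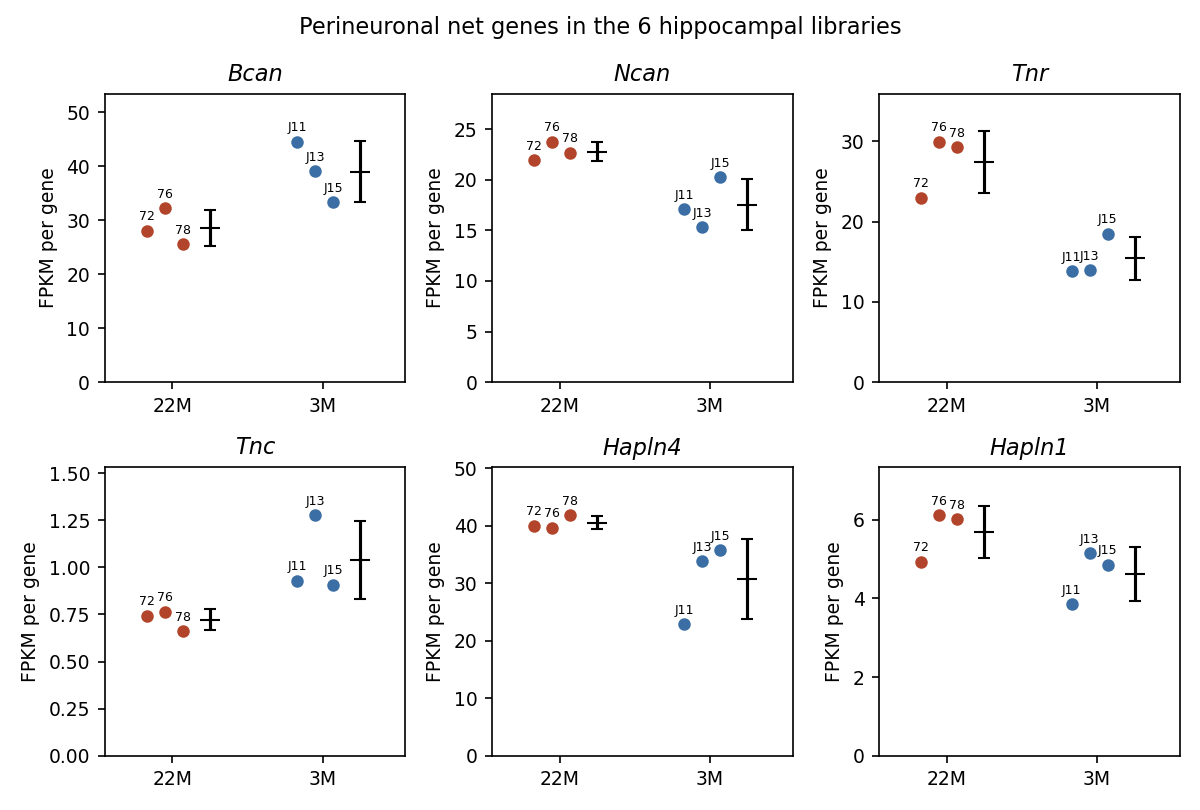
FPKM per gene (vertical axes, starting at 0) of the 6 perineuronal net genes in the 22M libraries (red) and the 3M libraries (blue), 1 point per library, with the mean ± SD at the right of each group. Tnr, Ncan and Hapln4 lie wholly above their 3M values in 22M, Bcan and Tnc wholly below, and Hapln1 overlaps.

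The upstream sequences of Tnr, Ncan and Bcan are shown because these were the matrix genes with the smallest P, Tnr and Ncan with positive fold changes and Bcan with a negative one. Each is the 250 bases before the RefSeq start (build GRCm38.p6), 5′ to 3′ on the strand of the gene. Capitals mark a match to 1 of 3 motifs, searched on both strands. The GC box was searched as GGGCGG. The TATA box was searched as TATAAA. The third motif was the CCAAT box, which on the opposite strand can share letters with a GC box. No matches share letters in the sequences shown.
Tnr: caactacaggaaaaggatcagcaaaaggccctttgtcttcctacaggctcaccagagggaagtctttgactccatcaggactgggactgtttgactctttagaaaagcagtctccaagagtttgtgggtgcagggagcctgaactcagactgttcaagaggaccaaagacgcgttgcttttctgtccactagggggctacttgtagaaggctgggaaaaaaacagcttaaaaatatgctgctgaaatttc
Ncan: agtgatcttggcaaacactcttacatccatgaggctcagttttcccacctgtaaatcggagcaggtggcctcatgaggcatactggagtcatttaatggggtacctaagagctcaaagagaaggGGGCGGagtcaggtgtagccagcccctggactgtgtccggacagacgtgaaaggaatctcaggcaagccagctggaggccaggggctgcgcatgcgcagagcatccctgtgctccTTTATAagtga
Bcan: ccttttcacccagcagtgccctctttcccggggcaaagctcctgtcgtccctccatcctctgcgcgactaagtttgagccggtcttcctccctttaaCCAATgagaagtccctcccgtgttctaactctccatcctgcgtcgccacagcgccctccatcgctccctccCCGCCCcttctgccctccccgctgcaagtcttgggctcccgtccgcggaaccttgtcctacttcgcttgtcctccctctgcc

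The Tnr sequence lies at chr1:159523519-159523768 on the plus strand and ends just before the first base of the deposited transcript Tnr-202. None of the 3 motifs was in it, and it held 2 CpG dinucleotides. The Ncan sequence, at chr8:70120845-70121094 on the minus strand, held 1 GC box, 1 TATA box and 6 CpG dinucleotides. Its last 29 bases, the TATA box among them, lie inside the deposited transcript Ncan-201, which starts upstream of the RefSeq start. The Bcan sequence, at chr3:88000357-88000606 on the minus strand, held 1 GC box, 1 CCAAT box and 16 CpG dinucleotides, and its RefSeq start is 126 bases upstream of the start of the transcript Bcan-201. Among 27025 such RefSeq sequences, 32.9% held a GC box, 13% a TATA box and 34.5% a CCAAT box, and the median number of CpG dinucleotides was 6. A match describes letters and not a binding site.

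Brevican and neurocan, the lecticans of the adult and of the developing brain, stood on opposite sides of 0. Bcan was at 28.1, 32.2 and 25.6 FPKM in the 22M libraries 72, 76 and 78, against 44.6, 39.1 and 33.4 FPKM in the 3M libraries J11, J13 and J15. Its highest 22M library, 76, was close to its lowest 3M library, J15. Its 22M mean was 28.6 ± 3.35 FPKM, against a 3M mean of 39.0 ± 5.60 FPKM, and limma gave -0.44 as the log2 fold change (SE 0.136, unadjusted P = 0.0157, adjusted p = 0.109). Ncan was at 21.9, 23.8 and 22.6 FPKM in 72, 76 and 78, against 17.1, 15.3 and 20.2 FPKM in J11, J13 and J15. The 22M libraries lay close together, and J15 was again the 3M library nearest to them. The log2 fold change of Ncan was 0.37 (SE 0.117, limma unadjusted P = 0.0160, adjusted p = 0.110).

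A ratio of 2 genes within a library does not depend on how the libraries were scaled. It can still carry the trend with transcript length described below, since Ncan-201 has 7195 bases and Bcan-201 3141. After correction for length and GC content the log2 fold changes were -0.34 for Bcan and 0.14 for Ncan. The ratios given here are of the deposited FPKM. Bcan over Ncan was 1.28, 1.36 and 1.13 in 72, 76 and 78, against 2.60, 2.56 and 1.65 in J11, J13 and J15. Each library held more Bcan than Ncan per unit of transcript length, and the excess was smaller in the 22M libraries than in any 3M library. The ratio averaged 1.26 ± 0.116 in 22M and 2.27 ± 0.538 in 3M (SD, n = 3 libraries each). Both genes were chosen with their values known, so the ratio was not tested.

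The table holds 2 transcripts of Bcan, and the shorter, Bcan-205, lies within the genomic span of the longer. Of the gene's FPKM, nearly all belonged to Bcan-201, which has 14 exons and 3141 bases. Bcan-205, with 3 exons and 381 bases, held 2.13, 1.21 and 2.36% of the gene's FPKM in 72, 76 and 78, against 0.361, 0.172 and 1.84% in J11, J13 and J15. The ages overlapped, since J15 lay between the 22M libraries. The difference of 1.11 percentage points gave p = 0.2 in an exact two-sided permutation test, where 3 libraries against 3 allow no p under 0.1. Bcan-205 itself was at 0.597, 0.389 and 0.603 FPKM in 72, 76 and 78, against 0.161, 0.0672 and 0.615 FPKM in J11, J13 and J15. It averaged 0.5 FPKM or more in 22M only, so it has a row through 22M alone. That favoured a higher share in 22M, and no conclusion is drawn from the difference.

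Tenascin-R, the protein that cross-links lecticans in the net, had the largest fold change of the 6 members in the deposited FPKM, though not after correction for transcript length and GC content. Tnr was at 23.0, 30.0 and 29.2 FPKM in 72, 76 and 78, against 13.8, 14.0 and 18.5 FPKM in J11, J13 and J15. Even the lowest 22M library, 72, lay above the highest 3M library, J15. The log2 fold change was 0.81 (SE 0.157, limma unadjusted P = 0.00152, adjusted p = 0.0529), past the study's thresholds and just short of the adjusted threshold of 0.05. The adjusted p was 0.0427 without J15, 0.0493 with libraries scaled by median ratios, 0.0463 with quantile-normalized libraries and 0.0271 with array weights, and missed the threshold in the other 13 of 17 alternatives. More of all genes rose in each setting where Tnr passed than in the reported fit. The highest adjusted p of Tnr, 0.212, came with the correction for length and GC content. The log2 fold change was then 0.30, and Tnr no longer passed the study's thresholds. Of 4 protein-coding Tnr transcripts annotated, the table holds 1, Tnr-202. Tested over 23637 transcripts, it was again past the study's thresholds (limma adjusted p = 0.129). Of the 6 member transcripts tested, 0 passed the adjusted p, where 0.207% of all transcripts did (0.123% rose and 0.0846% fell). At the study's thresholds 1 of 6 was higher, where 5.03% of all transcripts were higher, 4.54% lower and 9.58% either. The ages did not overlap in 5 of 6 member transcripts, where 26% of all transcripts showed no overlap (11.5% with 22M above and 14.5% below). An unadjusted limma P under 0.05 was reached by 3 of 6 member transcripts and 17.3% of all transcripts. Log2 fold changes were above 0 in 4 of 6 member transcripts and 48.1% of all transcripts.

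Tenascin-C, a tenascin of developing and injured tissue, was near the lower limit of the table. Tnc was at 0.744, 0.764 and 0.662 FPKM in 72, 76 and 78, against 0.930, 1.28 and 0.909 FPKM in J11, J13 and J15. No 22M library reached the lowest 3M library, and J13 stood above the other 3M libraries. Its log2 fold change was -0.32 (SE 0.174, limma unadjusted P = 0.108, adjusted p = 0.281). Tnr over Tnc was 30.9, 39.2 and 44.2 in 72, 76 and 78, against 14.9, 10.9 and 20.4 in J11, J13 and J15, with no overlap between the ages. Both genes were chosen with their values known, so this ratio was not tested either.

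**Figure D2:**
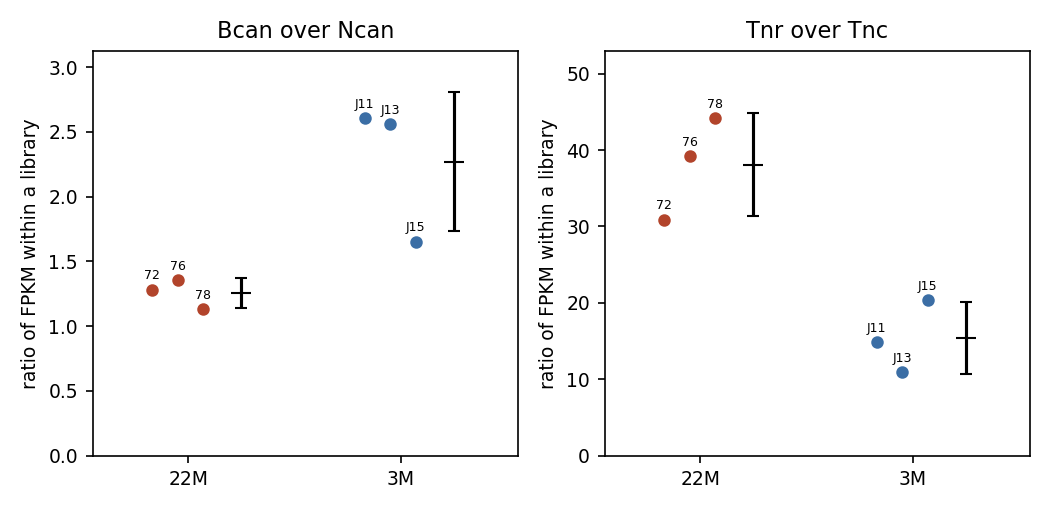
Ratio of FPKM within a library (vertical axes, starting at 0) for Bcan over Ncan and Tnr over Tnc, 1 point per library, 22M in red and 3M in blue, with the mean ± SD at the right of each group. Bcan over Ncan was at most 1.36 in 22M and at least 1.65 in 3M, and Tnr over Tnc at least 30.9 in 22M and at most 20.4 in 3M. Both ratios are of the deposited FPKM, without correction for transcript length or GC content.

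Hapln4, a link protein known from nets of the brainstem and cerebellum, was the most abundant member in the 22M libraries. It was at 40.0, 39.7 and 41.9 FPKM in 72, 76 and 78, against 22.9, 33.8 and 35.8 FPKM in J11, J13 and J15. The 22M libraries were nearly alike, and J11 stood well below the other 3M libraries. The log2 fold change was 0.42 (SE 0.170, limma unadjusted P = 0.0455, adjusted p = 0.176), and 0.22 without J11. Hapln1, whose protein stabilizes lecticans on hyaluronan in cartilage and in nets, was at 4.93, 6.12 and 6.01 FPKM in 72, 76 and 78, against 3.86, 5.15 and 4.85 FPKM in J11, J13 and J15. Library 72 lay below J13, so the ages overlapped, and the log2 fold change was 0.28 (SE 0.151, limma unadjusted P = 0.113, adjusted p = 0.289).

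FPKM are scaled to transcript length, and the levels of the members are set side by side here as deposited. They are not corrected for the trend with length described below, which the order of genes of unlike length may carry. In 22M the order of the mean FPKM was Hapln4 (40.5), Bcan (28.6), Tnr (27.4), Ncan (22.8), Hapln1 (5.69) and Tnc (0.723). In 3M it was Bcan (39.0), Hapln4 (30.8), Ncan (17.5), Tnr (15.4), Hapln1 (4.62) and Tnc (1.04). Bcan and Tnr overlapped in 22M, as did Tnr and Ncan, and in 3M the overlapping neighbours were Bcan and Hapln4, and Ncan and Tnr. The summed FPKM of the 6 members was 119, 133 and 126 in 72, 76 and 78, against 103, 109 and 114 in J11, J13 and J15.

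The fold changes of these genes have to be read beside their transcript lengths, because fold changes of all genes ran with length (Spearman rho = 0.509 over 13015 genes; genes are no replicates of an age). Splitting the genes by length gave 10 groups. Tnr-202 has 12202 bases, Ncan-201 7195 and Tnc-203 7106, and all 3 fell in the group of the longest transcripts, whose median log2 fold change was 0.33. Within that group of 1302 genes Tnr ranked 86th from the top, Ncan 538th and Tnc 1263rd. Hapln4, with 3648 bases, ranked 133rd among the 1301 genes of its group, and Bcan, with 3141 bases, 1196th among 1302. Tnr and Hapln4 were thus above most genes of like length, Bcan and Tnc below most, and Ncan near the middle.

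With length and GC content fitted out of every library, 0 of 6 members passed limma's adjusted p, and the member past the study's thresholds was Tnc and no longer Tnr. Of the 13015 genes with a length, 23 rose and 16 fell under the same correction. At the study's thresholds 354 were then higher and 332 lower. The corrected log2 fold change of Tnr was 0.30 (SE 0.105, limma unadjusted P = 0.0274, adjusted p = 0.212), and that of Tnc was -0.59 (SE 0.184, limma unadjusted P = 0.0161, adjusted p = 0.177). Ncan came to 0.14 and Hapln1 to 0.03, while Hapln4 stood at 0.44 and Bcan at -0.34. The median of the 6 members was then 0.08. Whether the trend with length came from age or from the libraries cannot be told apart in this design.

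**Figure D3:**
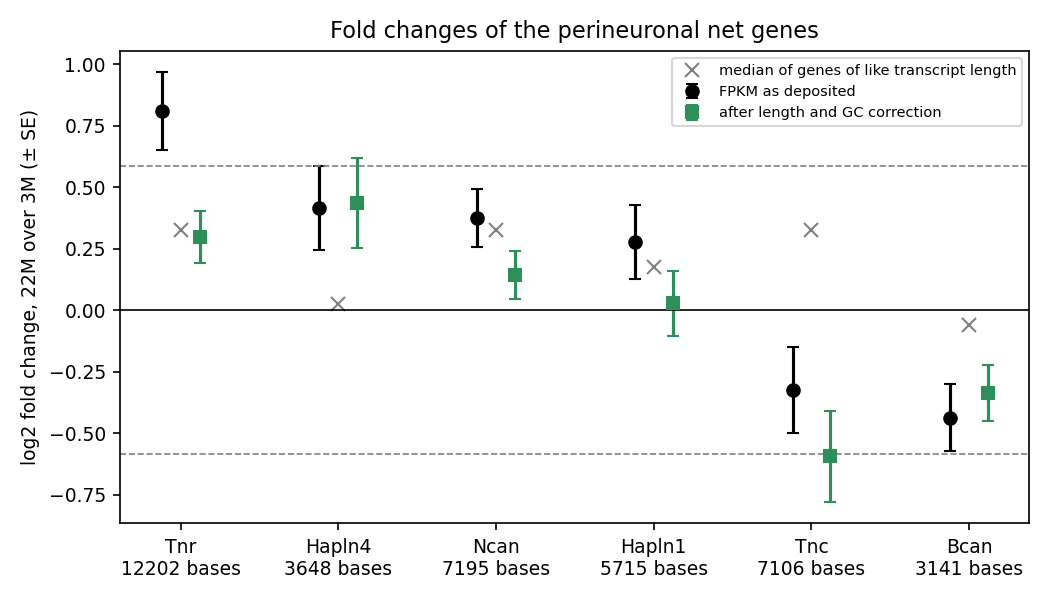
Log2 fold change of 22M over 3M (vertical axis) of the 6 genes, labelled with transcript length, from the deposited FPKM (black circles, ± SE) and after correction for length and GC content (green squares, ± SE). Grey crosses give the median of genes of like length, dashed lines a 1.5-fold change in either direction. Tnr lies beyond that line at 0.81 and inside it at 0.30 after correction.

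The genes of lecticans and link proteins lie next to each other in the mouse genome, a feature the choice of members did not use. Hapln4 (chromosome 8, 70083457 to 70090862, plus strand) and Ncan (70093085 to 70120873, minus strand) face each other tail to tail with 2222 bases between them in GRCm38. Hapln2, which encodes the link protein of myelinated axons, lies 21519 bases from Bcan (chromosome 3, 87987531 to 88000230) on the same strand. Hapln1 (chromosome 13, 89539796 to 89611652, plus strand) and Vcan, the gene of the lectican versican, also lie tail to tail, 43659 bases apart. No other protein-coding gene starts between the genes of any of these pairs.

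The genes of each pair had fold changes of the same sign. Hapln2 was at 6.14, 6.05 and 4.25 FPKM in 72, 76 and 78, against 7.98, 9.66 and 5.24 FPKM in J11, J13 and J15. The ages overlapped, and the log2 fold change was -0.42 (SE 0.243, limma adjusted p = 0.314), beside -0.44 for Bcan. Vcan was at 2.53, 2.45 and 2.44 FPKM in 72, 76 and 78, against 2.22, 1.76 and 1.75 FPKM in J11, J13 and J15. All 22M libraries lay above the 3M libraries, and the log2 fold change was 0.31 (SE 0.143, limma adjusted p = 0.220), beside 0.28 for Hapln1. Ncan and Hapln4 stood at 0.37 and 0.42. The pairs were looked at after the values were seen, 3 pairs are few, and no test of the agreement was made. After correction for length and GC content Hapln2 stood at -0.16, Vcan at 0.07 and Hapln1 at 0.03 (limma adjusted p = 0.703, adjusted p = 0.839 and adjusted p = 0.932), values whose sign says little.

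**Figure D4:**
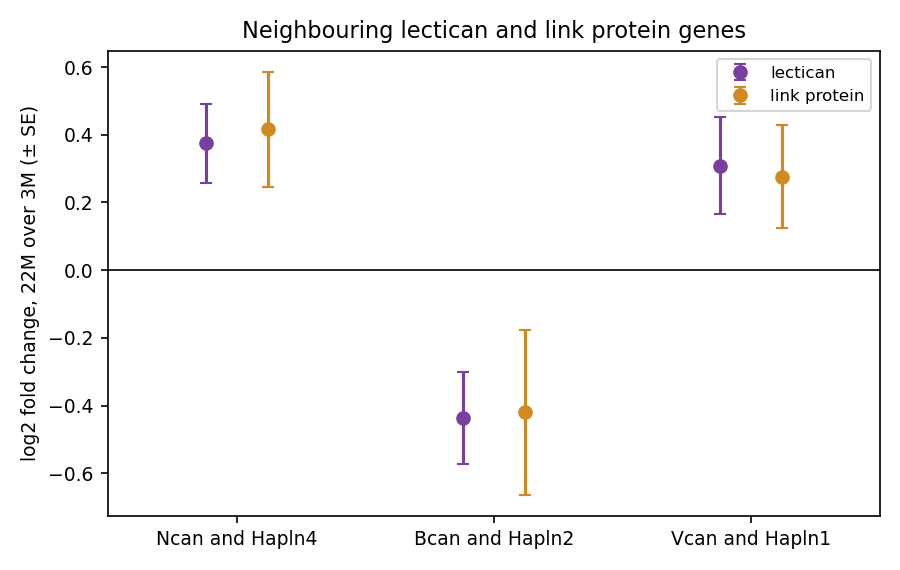
Log2 fold change of 22M over 3M (vertical axis, ± SE) for 3 pairs of neighbouring genes, the lectican in purple and the link protein in orange. Ncan and Hapln4 lie at 0.37 and 0.42, Bcan and Hapln2 at -0.44 and -0.42, and Vcan and Hapln1 at 0.31 and 0.28.

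Among other lecticans, link proteins and hyaluronan enzymes, 10 genes were tested, and 0 rose or fell by limma's adjusted p. An unadjusted limma P under 0.05 was reached by 3 of 10, where 27% of all genes reached it. At the study's thresholds 0 were called, where 8.3% of all genes were. Their median on the log2 scale was -0.01.

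Chondroitin sulfate chains are built on the lectican core proteins by a row of enzymes, of which 24 of 26 listed were tested. Of these, 1 fell, 0 rose and 23 did not pass the adjusted p, where 1.21% of all genes fell and 0.92% rose. The median log2 fold change was 0.05. The xylosyltransferases, which attach the first sugar of the chain, stood at both ends of the list. Xylt2 was at 2.5, 2.14 and 2.45 FPKM in 72, 76 and 78, against 5.05, 4.61 and 5.61 FPKM in J11, J13 and J15. It fell by 0.96 on the log2 scale (SE 0.133, limma adjusted p = 0.0394), with adjusted p from 0.0215 to 0.146 over 17 alternatives. Of these, 8 did not pass, among them leaving out any single library but J15. Xylt1 was at 10.4, 10.8 and 13.2 FPKM in 72, 76 and 78, against 6.28, 7.12 and 7.54 FPKM in J11, J13 and J15. It passed the study's thresholds as higher, by 0.68 on the log2 scale (SE 0.131, limma adjusted p = 0.0529), which came to 0.29 after correction for length and GC content. Xylt1 over Xylt2 ran from 4.15 to 5.4 in 22M and from 1.24 to 1.54 in 3M. These 2 genes were paired as the ends of the list with their values known, so their ratio was not tested.

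Of the proteases that cut the matrix and their inhibitors, 15 of 20 listed were tested. By limma's adjusted p 0 rose or fell, and the median was -0.01. An unadjusted limma P under 0.05 was reached by 4 of 15, where 27% of all genes reached it. At the study's thresholds 2 were higher, where 4.08% of all genes were. Adamts1, an aggrecanase that cleaves lecticans, was at 7.95, 6.27 and 5.04 FPKM in 72, 76 and 78, against 2.55, 3.32 and 4.53 FPKM in J11, J13 and J15 (log2 fold change 0.81, limma adjusted p = 0.0944). Mmp16, a membrane-bound matrix metalloproteinase, averaged 5.64 ± 0.555 FPKM in the 22M libraries, against 3.51 ± 0.414 FPKM in the 3M libraries (SD, n = 3 each, limma adjusted p = 0.0609). In both genes every 22M library lay above every 3M library, as in 13.3% of all genes. Timp4 and Mmp15, an inhibitor and a membrane-bound protease, were named after their values were seen. Both lay lower in every 22M library than in any 3M library, as did 21.1% of all genes. Timp4 averaged 6.64 ± 0.399 FPKM in 22M, against 9.33 ± 1.13 FPKM in 3M (log2 fold change -0.46, limma adjusted p = 0.0840), and Mmp15 had a log2 fold change of -0.48 (limma adjusted p = 0.159). After correction for length and GC content Adamts1 at 0.64 and Timp4 at -0.68 passed the study's thresholds, while Mmp16 stood at 0.41.

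Receptors of net components and proteins bound in nets had a median log2 fold change of 0.33 over the 20 of 21 that were tested, and of 0.12 after correction for length and GC content. By limma's adjusted p 0 rose or fell. An unadjusted limma P under 0.05 was reached by 8 of 20 (7 with positive and 1 with negative fold changes), where 27% of all genes reached it. By the study's thresholds 2 of 20 were higher, where 4.08% of all genes were. The smallest P was that of Nptx2, a secreted pentraxin of excitatory synapses named after its values were seen, at 10.6 ± 0.875 FPKM in 22M, against 14.7 ± 0.271 FPKM in 3M (log2 fold change -0.46, limma unadjusted P = 0.00225, adjusted p = 0.0584). Cd44, a cell surface receptor of hyaluronan, was at 1.69, 1.36 and 2.53 FPKM in 72, 76 and 78, against 0.511, 1.03 and 0.718 FPKM in J11, J13 and J15 (log2 fold change 0.90, limma adjusted p = 0.0888). Plxna4, a plexin that transmits semaphorin signals, averaged 18.9 ± 3.09 FPKM in the 22M libraries, against 11.6 ± 2.66 FPKM in the 3M libraries (SD, n = 3 each). Its log2 fold change was 0.70 (limma adjusted p = 0.0888) and 0.19 after the correction.

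**Figure D5:**
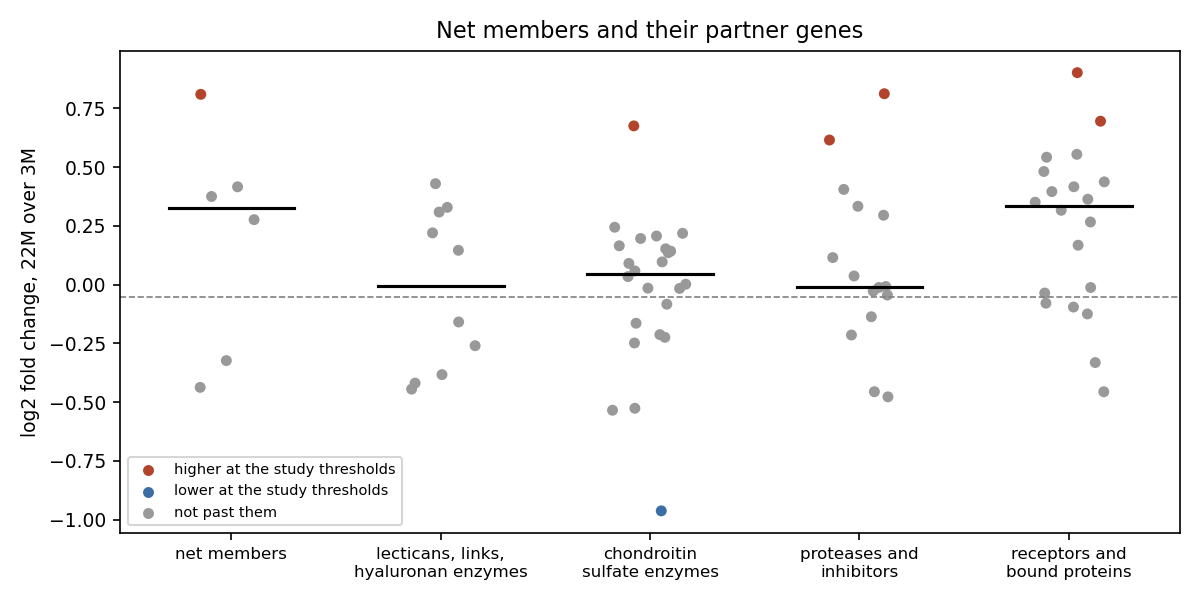
Log2 fold change of 22M over 3M (vertical axis) of the tested genes of each list, 1 point per gene, with the list's median as a black bar and the median of all genes tested, -0.05, as a dashed line. Red points were higher by the study's thresholds and blue points lower: Tnr among the members, and Xylt1, Xylt2, Mmp16, Adamts1, Cd44 and Plxna4 among the partners.

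In bulk tissue, fewer cells of a type and less RNA per cell cannot be told apart, so the levels of marker genes are given beside those of the net genes. Over all genes tested, 0.92% rose, 1.21% fell and 27% reached an unadjusted limma P under 0.05. Of 14 astrocyte markers, 0 rose or fell by limma's adjusted p and 10 reached an unadjusted P under 0.05, 5 with positive and 5 with negative fold changes. Their summed FPKM ran from 937 to 1072 in 22M and from 925 to 948 in 3M. Gfap, the intermediate filament of astrocytes, averaged 184 ± 25.0 FPKM in the 22M libraries, against 126 ± 12.6 FPKM in the 3M libraries, while the astrocyte enzyme gene Aldh1l1 averaged 7.33 ± 0.586 FPKM in 22M, against 11.8 ± 2.11 FPKM in 3M (SD, n = 3 each). Of 10 markers of oligodendrocyte precursors, 0 rose or fell and 2 reached an unadjusted P under 0.05, and their sum ran from 173 to 195 FPKM in 22M and from 204.9 to 247 FPKM in 3M. Of 12 oligodendrocyte markers, 6 fell and 6 did not pass, with sums of 798 to 1020 FPKM in 22M and 1315 to 1387 FPKM in 3M. Over 17 alternatives 0 to 9 of them passed, with 5 without J15 and 0 without any other single library. Tnr stood higher in the 22M libraries and the sum of oligodendrocyte markers lower, and any link between them was not tested.

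Of 14 markers of parvalbumin interneurons, 1 rose and 13 did not pass the test. The marker that rose was Erbb4, the neuregulin receptor of these cells, with 8.52 ± 1.55 FPKM in the 22M libraries, against 3.68 ± 0.722 FPKM in the 3M libraries (SD, n = 3 each, limma adjusted p = 0.0479). Its adjusted p was 0.0263 to 0.212 over 17 alternatives, and 10 of these did not pass, among them leaving out any single library. The highest came with the correction for length and GC content, under which the log2 fold change of Erbb4 was 0.60, beside 1.11 as deposited. Pvalb itself was at 58.2, 47.9 and 49.8 FPKM in 72, 76 and 78, against 64.6, 122 and 58.0 FPKM in J11, J13 and J15. The ages overlapped. The list's sum ran from 334 to 377 FPKM in 22M and from 239 to 431 FPKM in 3M. Library J11 held the highest Tac1 (83.2 FPKM, against 7.11 in J13 and 5.94 in J15), Slc32a1 (51.8 FPKM) and Gad2 (50.8 FPKM). The other markers of the list were not highest in J11, Gad1 for example at 25.6 FPKM there and 110 FPKM in J13. Whether J11 differs in tissue content was not tested. Of 10 markers of CA2 neurons, 1 fell and 9 did not pass, with sums of 336 to 403 FPKM in 22M and 533 to 813 FPKM in 3M. Pcp4 alone made up most of these sums. The other 9 markers summed to 101 to 129.6 FPKM in 22M and 130.8 to 197 FPKM in 3M, ranges that nearly touched. Among them, Ptpn5 was at 72.5 FPKM in J11, against 29.3 FPKM in J13 and 26.9 FPKM in J15. Sostdc1, also among them, is on the choroid plexus list too, at 33.0, 14.1 and 2.37 FPKM in 72, 76 and 78. The marker that fell was Pcp4, a calmodulin-binding protein gene, with 248 ± 23.0 FPKM in the 22M libraries, against 497 ± 112 FPKM in the 3M libraries (limma adjusted p = 0.0479), and an adjusted p of 0.0257 to 0.155 over 17 alternatives. Again 10 did not pass, among them leaving out any single library but J15. Rgs14, a CA2 signalling protein gene, averaged 13.4 ± 4.27 FPKM in the 22M libraries, against 21.1 ± 3.93 FPKM in the 3M libraries (limma adjusted p = 0.159). Amigo2, another marker of the list, averaged 9.62 ± 1.31 FPKM in 22M, against 9.90 ± 1.06 FPKM in 3M (limma adjusted p = 0.860). Of the 10 CA2 markers, 1 had a log2 fold change above 0. Pvalb and Pcp4 are both expressed outside the hippocampus as well.

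Thalamic and habenular markers numbered 16 after the filter. Of these, 5 fell and 11 did not pass, and their sum was 69.5 to 86.8 FPKM in 22M and 137 to 207 FPKM in 3M. At the study's thresholds 9 were lower, where 4.22% of all genes were. Nexn was at 0.942 ± 0.380 FPKM in 22M, against 12.3 ± 3.94 FPKM in 3M, Tnnt1 at 1.07 ± 0.436 FPKM in 22M, against 15.4 ± 7.13 FPKM in 3M (SD, n = 3 each). Prkcd was at 2.47, 2.74 and 1.62 FPKM in 72, 76 and 78, against 8.66, 10.3 and 12.02 FPKM in J11, J13 and J15. Over 17 alternatives 0 to 5 markers passed the adjusted p, with 0 without 72, 76 or J13 and 2 without 78. Of 11 microglia markers, 0 rose or fell by limma's adjusted p and 3 reached an unadjusted P under 0.05, with sums of 282 to 319 FPKM in 22M and 316 to 437 FPKM in 3M. Of 9 choroid plexus markers, 0 rose or fell and 0 reached an unadjusted P under 0.05, while their sum ran from 137 FPKM in 78 to 2871 FPKM in 72, and from 1649 to 2532 FPKM in 3M. None of the markers tested in these lists was at 0 in any library. The part of these tissues and cells in the values of the net genes was not tested.

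Among the 6 libraries, the genes whose log2 values ran most like those of Tnr were Paqr9 (Pearson r = 0.998) and Sidt1 (r = 0.997), out of 12070 genes compared. For Bcan they were Keap1 (r = 0.998) and Cd302 (r = 0.995), and for Ncan Arhgef6 (r = 0.996) and Zc3hav1l (r = 0.992). These values describe 6 points that fall into 2 ages, and so many genes give a close match by number alone.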

How the data were processed

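Hippocampal mRNA was enriched on oligo beads and made into libraries with a stranded KAPA kit. The authors deposited FPKM values, 1 for each of 25409 transcripts in each library. The submitters' processing notes name HISAT2 and GRCm38 (mm10). How transcripts were quantified, whether by strand, and on which annotation, is not given in the sources used here. FPKM keep no counts, so depth is unknown and counting intervals were not computed.

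Libraries took their age from the labels. FPKM were summed per gene. Genes averaging 0.5 FPKM or more entered limma 3.58.1 (R 4.3.3), a two-sided test on log2(FPKM + 0.5) over all 6 libraries with a variance trend, and p-values were adjusted by Benjamini-Hochberg over the 13041 genes. Transcripts were treated likewise. "Rose" and "fell" mean an adjusted p under 0.05. The Bcan-205 share was compared by an exact permutation test. Lengths and GC content came from GENCODE vM21, in which 99.7% of the transcript identifiers were found when versions were ignored, and were fitted with natural splines of 4 degrees of freedom. RefSeq upstream sequences were found for 6 of the 8 members.

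The members, the 13 lists (188 entries) and the tests were chosen with earlier results of these data known. Named genes were all members, partners past the adjusted p, up to 4 partners a list past the study's thresholds, and up to 3 markers a list by P with its first entries. Some of these are not printed. Hapln2 and Vcan were added after their values were seen. Alternatives changed the pseudocount, filter, scaling, variance model, transcript choice, length and GC correction, and the libraries included.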

Additional observations from a re-analysis of the deposited data

How the results depend on the processing

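No member changed sign under any of the alternatives run, which were other pseudocounts, filters and scalings, other variance models, array weights, single transcripts, the correction for length and GC content, and leaving out each library. The number of members past the adjusted p, 0 as reported, was 1 with libraries scaled by median ratios, 1 with quantile-normalized libraries and 1 with array weights, and 0 to 1 when single libraries were left out (1 without J15). The gene was Tnr each time. The median log2 fold change of the members, 0.33 as reported, was 0.0845 after the correction for length and GC content, and 0.19 (without J11) to 0.40 (without J15) when single libraries were left out. The member past the study's thresholds was Tnr in 16 of 17 alternatives and Tnc after the correction for length and GC content. Over all genes, those that rose numbered 120 and those that fell 158, with ranges of 0 to 556 and 0 to 739 over the same alternatives. The highest counts, 556 and 739, came with array weights. Without J15 more genes rose and more fell than as reported. With median ratios or quantile normalization more rose and fewer fell. The settings in which Tnr passed thus raised the number of rising genes generally. With a mean of at least 1 FPKM both counts were also higher, and Tnr did not pass. The difference in the Bcan-205 share was 0.797 to 1.63 percentage points without single libraries. No paired analysis was possible because the library names give the 2 ages no shared replicate numbers. Tnc was not tested with a mean of at least 1 FPKM. Depth is unknown, which bears on low values such as Tnc and Bcan-205.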
